A study of Caenorhabditis elegans with 4 samples.

Results

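The arms of chromosome IV carried 464 LIN-13 peaks, 301 on the left arm and 163 on the right. They were chosen by position alone. A peak belonged to the left arm if its midpoint lay before base 3896000, and to the right arm if it lay at or beyond base 12970000 (WormBase WS180), the borders at which the meiotic recombination rate changes. They made up 8.43% of the 5502 peaks of the whole list and 57.5% of the peaks on chromosome IV, whose centre held the other 343.

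The peaks come from chromatin immunoprecipitation sequencing (ChIP-seq) of hermaphrodite embryos of strain OP51. Its genotype is unc-119 (ed3) III with the integrated transgene wgIs73, which encodes LIN-13 fused to TY1, EGFP and FLAG and also carries unc-119 (+). The transgene was introduced by bombardment, so the strain is 1 transgenic line and the protein measured is the tagged one. Embryos were fixed with 2% formaldehyde after growth at 20 °C, and chromatin was precipitated with a goat antibody against GFP. There were 2 ChIP libraries and 2 libraries of input DNA, which is chromatin taken before precipitation, all from this same strain. The authors combined both replicates into 1 peak list, so no value here has a replicate error, no library of a strain without the tag was analysed here, and no test was run. Intervals are exact 95% intervals that cover counting error only, except that those of read ratios at single sites are approximate. They treat peaks as independent, although many lie in short runs.

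LIN-13 has zinc fingers and belongs to the class B synthetic multivulva proteins, repressors that work alongside LIN-35, the worm relative of the retinoblastoma protein, to keep vulval and other cell fates in check. In C. elegans the chromosome arms recombine often and are rich in repeats and in marks of silent chromatin, while the centres recombine rarely and hold many broadly expressed genes. Chromosome IV is unusual because it holds most of the animal's piRNA genes, which encode small RNAs that guide silencing in the germline. The larger domain of these genes is taken here as 13.5 to 17.2 Mb, or 82.4% of the right arm. These borders are approximate and may come from another genome build. The peaks could not be assigned to genes here, since no gene annotation of WS180 was used.

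Peaks were more frequent on the left arm than on the right. The left arm held 77.3 peaks per Mb over 3.90 Mb, and the right arm 36.3 per Mb over 4.49 Mb up to the last peak of the chromosome. The left-to-right ratio of density was 2.13 (counting interval 1.75 to 2.59). Put as a share, 64.9% of the arm peaks (interval 60.3 to 69.2) lay on the left arm, which is 46.4% of the arm length. In covered sequence the arms differed less. Peaks covered 25.7 kb per Mb on the left arm and 18.5 kb per Mb on the right, a ratio of 1.39, against 15.4 in the centre and 19.6 in the whole list. By number, the whole list had 55.0 peaks per Mb and the centre of chromosome IV 37.8. The right arm was therefore at 0.96 times the density of the centre (interval 0.792 to 1.16) and the left arm at 2.04 times (interval 1.74 to 2.39). For both arms together, the 55.3 peaks per Mb gave a ratio to the centre of 1.46 (interval 1.27 to 1.69), so this figure averages a dense arm with one close to the centre in peak number.

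The difference between the arms held along their whole length. In 500 kb windows counted outward from the inner border, the 7 full windows of the left arm held between 28 and 48 peaks, with a median of 39. The 8 full windows of the right arm held between 13 and 24, with a median of 16.5. The ranges did not overlap. The fullest window of the left arm, from 1896000 to 2395999, held 48 peaks, and the emptiest, from 1396000 to 1895999, lay next to it with 28. The fullest window of the right arm, from 16470000 to 16969999, held 24 peaks, and the emptiest, from 13970000 to 14469999, held 13. That emptiest window contains the strongest peak of chromosome IV.

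**Figure D1:**
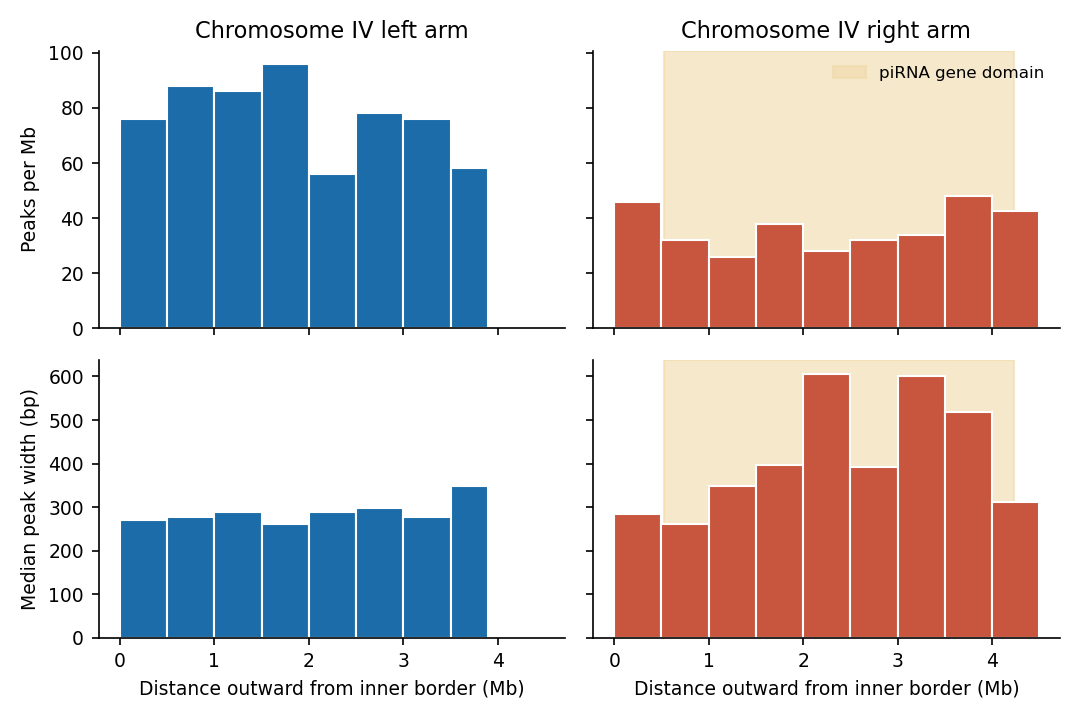
Peaks per Mb (top) and median peak width in bp (bottom) in 500 kb windows, counted outward in Mb from the inner border of each arm of chromosome IV; the last window of each arm is shorter, and shading marks the piRNA gene domain. Full windows of the left arm reach at least 56 peaks per Mb, and those of the right arm at most 48, while median widths above 500 bp occur on the right arm alone.

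At a finer scale both arms were uneven. In full 100 kb windows, the left arm ranged from 0 to 23 peaks with a median of 7, and the right arm from 0 to 12 with a median of 3. No peak fell in 1 of the 38 left windows and in 5 of the 44 right windows. The fullest 100 kb window of the left arm ran from 2596000 to 2695999 and held 23 peaks. Of these, 11 were among the 2751 peaks of the list with the smallest q-values, called top-ranked here. A q-value under 1e-10 was reached by 2. Median width there was 288 bp, equal to that of the whole arm. The fullest of the right arm ran from 16370000 to 16469999 and held 12 peaks. These were wide, at a median of 724.5 bp. Of the 12, 9 were top-ranked and 4 had a q-value under 1e-10. In the whole list 50.0% are top-ranked by definition, and 13.9% have a q-value under 1e-10. Each window was picked for its number of peaks, and these small counts were not tested.

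Peaks of the left arm were spaced more closely. Between neighbouring peaks of the left arm the median gap was 6318 bp (interval 5250 to 7445), with quartiles of 1844 and 15261 bp. On the right arm the median gap was 8478 bp (interval 6079 to 13389), with quartiles of 2407 and 34088 bp. In the centre the median was 16127 bp. The right arm thus had a median gap nearer to the left arm than to the centre, and an upper quartile close to the 36560 bp of the centre. Gaps under 1 kb made up 15.0% of those on the left arm, 14.2% on the right and 9.94% in the centre.

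Long empty stretches took up much of the right arm. It had 9 gaps of 100 kb or more, which together took up 32.2% of its length. On the left arm there were 2 such gaps, covering 5.31%, and in the centre 7, covering 12.6%. Over the whole list, such gaps took up 12.3% of the length. That share includes gaps that cross a border between arm and centre, which the values for the arms and the centre leave out. On chromosome IV the gap across each border exceeded 100 kb. The longest gap of the right arm ran from 16049177 to 16381969, or 332.8 kb, and was the longest between any neighbouring peaks in the list. A gap on chromosome V was close to it, at 321.7 kb, and the longest in the centre of IV was 245.4 kb. The next on the right arm ran from 15107546 to 15312014, or 204.5 kb. On the left arm the longest gap between 2 peaks of the arm ran from 2495461 to 2599383, or 103.9 kb. It ended just before the peaks of the fullest 100 kb window. Of the 9 long gaps of the right arm, 8 lay within the piRNA domain, which has 82.4% of the length, so this count was close to that share. These 8 covered 36.2% of the domain, against 32.2% of the arm for all 9. A gap means that no region was called at a q-value of 0.01, not that LIN-13 was absent.

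**Figure D2:**
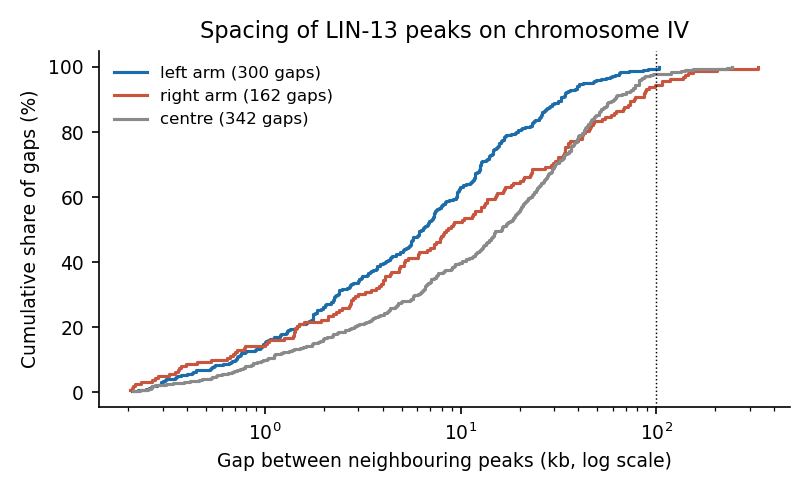
Cumulative share of gaps (%) by gap length (kb, log scale) between neighbouring peaks on the left arm, right arm and centre of chromosome IV; the dotted line marks 100 kb. The right arm follows the left arm among gaps below 1 kb and reaches beyond it and the centre among the longest, up to 332.8 kb.

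Close neighbours were most frequent on the left arm. A neighbour whose midpoint lay within 2 kb was present for 121 of 301 left-arm peaks (40.2%, interval 34.6 to 46.0) and 49 of 163 right-arm peaks (30.1%, interval 23.1 to 37.7). The share in the whole list was 32.8%, so that of the right arm was near the background, and in the centre of IV it was 25.7%. With peaks closer than 500 bp merged, the shares were 29.9% on the left arm and 14.2% on the right. Runs of 4 or more peaks with gaps under 2 kb numbered 8 on the left arm, 6 on the right and 1 in the centre. These came from 301, 163 and 343 peaks, so at this limit the right arm had no fewer than the left for its number of peaks. That depended on the limit. Runs of 2 or more peaks numbered 55 on the left arm and 20 on the right, and held 44.5% and 34.4% of the peaks, so the left arm was then ahead. Runs of 3 or more numbered 16 and 8. No count over the whole list is given here. On the left arm the longest runs had 4 peaks, and the most extended of these spanned 6208 bp from 2993075 to 2999282. On the right arm the longest runs had 5 peaks, from 16397892 to 16405810 and from 14791910 to 14797606. Neither of these held a peak with a q-value under 1e-10. Runs also surrounded strong sites. The strongest peak of the left arm opened a run of 4 from 654728 to 659143, the third strongest of the right arm opened one from 16489883 to 16498387, and its second strongest lay within one from 17277176 to 17281439.

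Peaks of the right arm were wider. Their median width was 373 bp (interval 330 to 411), against 288 bp (interval 260 to 307) on the left arm, a ratio of 1.30. The quartiles were 242.5 and 620.5 bp on the right arm, 187 and 397 bp on the left, and 252 and 487 bp in the centre, where the median was 331 bp. Widths ran from 6 to 3368 bp on the right arm and from 3 to 1413 bp on the left. Peaks of 1 kb or more made up 11.0% of the right arm (18 of 163, interval 6.68 to 16.9) and 2.99% of the left arm (9 of 301, interval 1.38 to 5.60). In the whole list the share was 2.69%. These wide peaks held 33.7% of all base pairs covered on the right arm and 10.8% of those on the left. Peaks under 100 bp made up 9.97% of the left arm and 7.36% of the right, against 8.91% of the list.

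The excess of the left arm lay among narrow peaks. Peaks under 300 bp came to 41.3 per Mb on the left arm and 12.0 on the right, a ratio of 3.44 (interval 2.51 to 4.77). From 300 to under 500 bp the densities were 24.4 and 11.6 per Mb, a ratio of 2.11 (interval 1.49 to 3.01). At 500 bp or wider they were 11.6 and 12.7 per Mb, a ratio of 0.91 (interval 0.602 to 1.37), so in this class the arms were not distinguishable at these counts of 45 and 57 peaks. The classes of width were set after the widths were seen. A similar order appeared by q-value, with which width goes together. Peaks with a q-value of 1e-10 or more showed a left-to-right ratio of 2.26 (interval 1.83 to 2.81), those under 1e-10 one of 1.51 (interval 0.907 to 2.54), and those under 1e-20, with 11 and 12 peaks, one of 1.06 (interval 0.423 to 2.62).

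**Figure D3:**
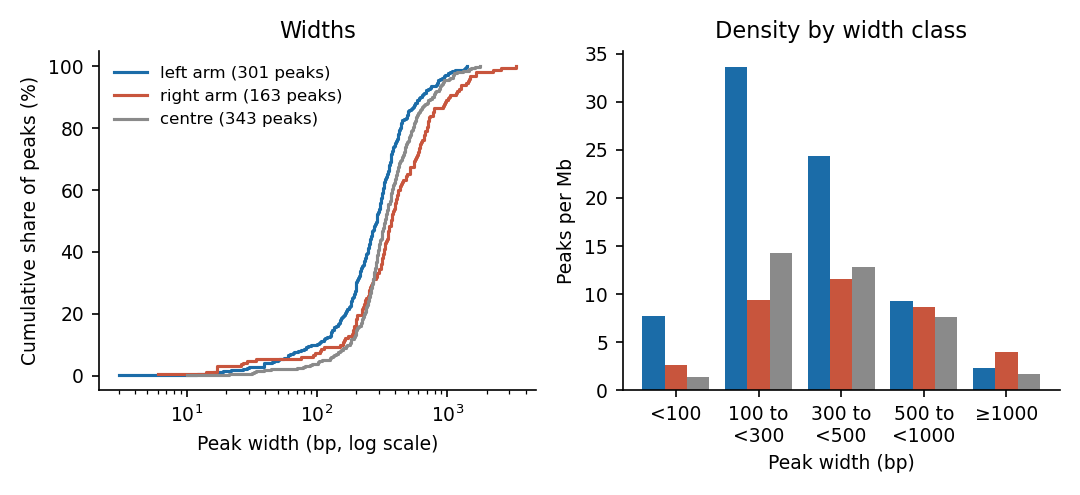
Left: cumulative share of peaks (%) by width (bp, log scale) on the left arm, right arm and centre of chromosome IV. Right: peaks per Mb by width class, in the same colours; the left arm is ahead in each class under 500 bp, the arms are close from 500 to under 1000 bp, and at 1000 bp or more the right arm has 4.01 per Mb against 2.31.

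Within the right arm, the piRNA domain held 128 peaks, or 34.6 per Mb, and the remainder of the arm held 35, or 44.2 per Mb. The ratio of 0.782 had a counting interval of 0.535 to 1.17, so a difference in density was not detectable with so few peaks outside. The remainder joined 26 peaks inward of the domain, at 49.1 per Mb, and 9 outward of it, at 34.4 per Mb. The outward stretch was thus close to the domain in density. Median widths of these inward and outward peaks were 246 and 360 bp. Peaks of the domain had a median width of 388 bp (interval 349 to 439), and those outside one of 285 bp (interval 194 to 415). Of the domain peaks 54.7% were top-ranked, against 31.4% of those outside, where the whole list has 50.0% by definition. Counting top-ranked peaks alone, the ratio of domain to remainder was 1.36, so the direction depended on which peaks were counted. Covered sequence was nearly equal, at 18.5 kb per Mb within the domain and 18.6 kb per Mb outside. Of the 18 peaks of 1 kb or more on the right arm, 15 lay in the domain, which has 82.4% of the length. Widths varied along the right arm, where the median width of the full 500 kb windows ran from 262 to 606.5 bp. The windows starting at 14970000, 15970000 and 16470000 had medians of 606.5, 601 and 519.5 bp and 4 peaks of 1 kb or more each. Those starting at 13470000 and 15470000 had medians of 262 and 392.5 bp and no such peak. On the left arm the medians of the full windows lay between 262 and 299 bp.

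In strength, as ranked by q-value, neither arm stood far from the list. A q-value under 1e-10 was reached by 38 left-arm peaks (12.6%, interval 9.09 to 16.9) and 29 right-arm peaks (17.8%, interval 12.3 to 24.5), against 13.9% of the list and 14.9% of the centre. A q-value under 1e-20 was reached by 3.65% of the left arm and 7.36% of the right, against 4.33% of the list. Per Mb, peaks under 1e-10 numbered 9.75 on the left arm, 6.46 on the right and 5.62 in the centre. Wider peaks had smaller q-values on both arms. Spearman's rho between width and the q-value ranked from weak to strong was 0.59 over the 301 left-arm peaks and 0.55 over the 163 right-arm peaks. This is a description across peaks that share the same libraries.

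The strongest sites of the arms differed in shape. Their depth can be given because the q-values carry it: each q-value times its rank equalled 26301 times a binomial chance, that of at least so many ChIP reads when a whole number of reads falls equally likely on ChIP or input, within 1e-09 on the natural log scale. A single pair of numbers resulted for 5501 of the 5502 peaks and for all 464 arm peaks. Of the pair, the larger is taken as ChIP reads and the smaller as scaled input reads. Both are inferred from the q-values, and the ratio between them carries a counting interval. That interval treats both numbers as plain counts, although the input is taken as scaled by an unknown factor. It is therefore approximate, and it does not allow for sites having been picked by q-value or ratio. If the caller counted the tail differently, 1 read would move from ChIP to input in each peak, which matters most for narrow peaks with few input reads.

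On the left arm the 5 peaks with the smallest q-values were between 364 and 835 bp wide and had between 26 and 50 input reads, against 28 to 269 for the 5 strongest of the right arm. The strongest, at IV:654728-655115, was 388 bp wide with a q-value of 2.99e-70, rank 7 in the whole list. Its 359 ChIP reads against 29 input reads gave a ratio of 12.4 (interval 8.47 to 18.8). No peak of either arm with 100 or more reads had a higher one. The next, at IV:3050227-3051061, was 835 bp wide with a q-value of 1.35e-63 and had 391 against 50 reads, a ratio of 7.82 (interval 5.82 to 10.7). At IV:2388935-2389350, 416 bp wide with a q-value of 5.93e-51, the reads were 295 against 33 and the ratio 8.94 (interval 6.23 to 13.2). The fourth, at IV:1659076-1659439, was 364 bp wide with a q-value of 1.65e-42 and a ratio of 9.31 (interval 6.20 to 14.5). The fifth lay near the chromosome end, at IV:385166-385800, with a q-value of 2.06e-39 and a ratio of 5.84 (interval 4.30 to 8.07). These sites were scattered over the arm. Another of its 10 strongest peaks, at IV:390302-390685 with a q-value of 7.43e-28, lay about 5 kb from the fifth.

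On the right arm the 5 strongest peaks were between 680 and 3368 bp wide, and 3 of them exceeded 1 kb. The strongest, at IV:14032433-14035008, was 2576 bp wide with a q-value of 1.79e-103, rank 2 in the whole list, and lay inside the piRNA domain. It had 1033 ChIP reads, the most of any peak in the list, against 265 input reads, a ratio of 3.90 (interval 3.40 to 4.48). It stood alone, with the nearest peak midpoint 13271 bp away. The second and the fourth strongest lay just outward of the domain as taken here, and inside it if its border is moved outward by 0.2 Mb. They were IV:17278189-17279472, 1284 bp wide with a q-value of 3.18e-47 and a ratio of 4.24 (interval 3.42 to 5.31), and IV:17249675-17250653, 979 bp wide with a q-value of 1.31e-42 and a ratio of 5.47 (interval 4.14 to 7.35). The widest peak of the list, at IV:16489883-16493250, spanned 3368 bp with a q-value of 4.84e-44 and had 711 against 269 reads, a ratio of 2.64 (interval 2.29 to 3.05). The fifth, at IV:15059111-15059790, was 680 bp wide with a q-value of 1.08e-32 and a ratio of 7.39 (interval 4.97 to 11.4), close in shape to the strong sites of the left arm.

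Among the 10 strongest peaks of each arm, the median width was 402 bp on the left and 848.5 bp on the right. The median ratio of ChIP to input reads was 6.66 on the left, within a range of 3.22 to 12.4, and 4.07 on the right, within a range of 2.64 to 7.39. The ranges overlapped. Over all peaks with a q-value under 1e-10, the median width was 417 bp on the left arm and 662 bp on the right, and the median ratio 4.86 and 3.90. Ratios of at least 5 occurred in 22 left-arm peaks (7.31%, interval 4.64 to 10.9) and 17 right-arm peaks (10.4%, interval 6.19 to 16.2), against 6.42% of the list. With 1 read moved from ChIP to input these counts were 17 (5.65%) and 12 (7.36%), against 4.47% of the list. Over all peaks of an arm, the median ratio was 2.69 on the left (interval 2.59 to 2.82) and 2.53 on the right (interval 2.47 to 2.75), and these intervals overlapped. Among peaks with 100 or more reads in total the medians were 2.63 and 2.34.

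**Figure D4:**
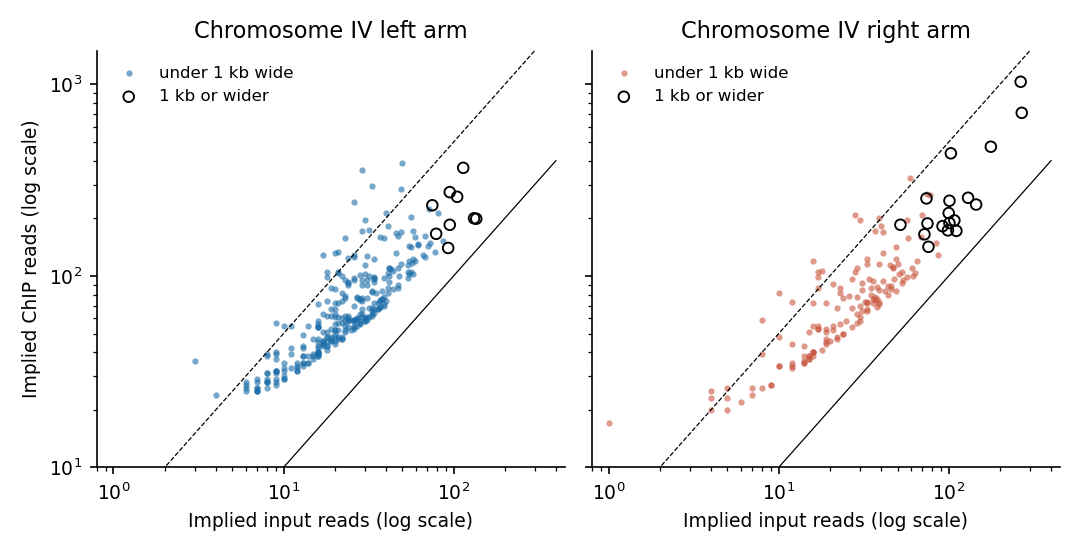
Implied ChIP reads against implied scaled input reads (both log scales) for each peak of the left and right arm of chromosome IV; open circles are peaks of 1 kb or more, the solid line marks equal reads and the dashed line a ratio of 5. The strongest left-arm peaks, with 242 to 391 ChIP reads, lie above the dashed line at 26 to 50 input reads, whereas the strongest peak of the right arm lies below it at 1033 against 265.

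The weakest members lay close to the limit of the list. The narrowest peak of the left arm, at IV:1175446-1175448, was 3 bp wide with 25 against 7 reads and a q-value of 0.00577. The narrowest of the right arm, at IV:13284159-13284164, was 6 bp wide with 22 against 6 reads and a q-value of 0.0091. Wide peaks could be weak too. The peak at IV:3276327-3277717 on the left arm was 1391 bp wide but had 199 against 136 reads, a ratio of 1.46 (interval 1.17 to 1.83) and the lowest on either arm. At IV:15049514-15051160 on the right arm, 1647 bp wide, the ratio was 1.63 (interval 1.32 to 2.02). No peak lay close to a border between arm and centre. The last of the left arm ended at 3860622 and the first of the centre began at 4019872, while the last of the centre ended at 12870233 and the first of the right arm began at 12999045.

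Set beside the arms of the other 5 chromosomes, with borders at their own changes of recombination rate, chromosome IV had the highest left-to-right ratio of density. It was 2.13 on IV, followed by 1.53 on III (interval 1.23 to 1.90), 0.987 on X, 0.933 on II and 0.90 on I, and 0.647 on V (interval 0.555 to 0.754), where the right arm was the denser. The intervals of IV and III overlapped. The right arm of IV had the lowest density of all 12 arms, next to 40.2 peaks per Mb on the right arm of III. It also had the largest median width, 373 bp against 202.5 to 352.5 bp on the 10 arms of other chromosomes. The counting interval of this median, 330 to 411 bp, included the medians of the left and right arm of X, 352.5 and 347 bp. The share of peaks of 1 kb or more on the right arm of IV, 11.0%, compared with 0.669% to 4.35% on those 10 arms. The left arm of IV, at 77.3 per Mb, a median of 288 bp and a share of 2.99%, lay within the range of those arms in all these measures. None of these differences between chromosomes was tested.

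**Figure D5:**
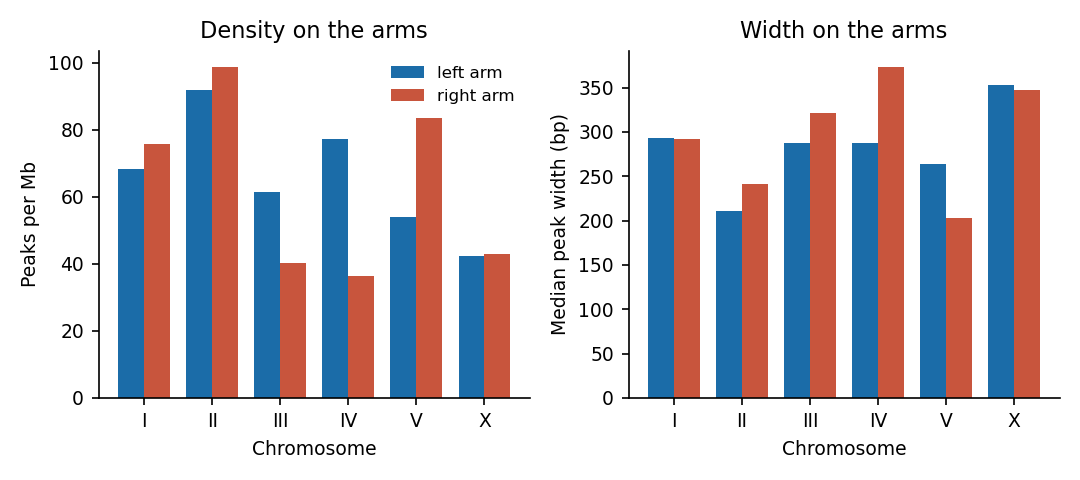
Peaks per Mb (left) and median peak width in bp (right) on the left and right arm of each of the 6 chromosomes. The right arm of IV has the lowest density, 36.3 per Mb, and the largest median width, 373 bp.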

How the data were processed

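Per the labels' protocols, whole embryos were fixed and lysed, sonicated chromatin was precipitated, and fragments were selected by size on a gel before Illumina library preparation. The deposited list gives the start, end and q-value of 5502 peaks, as the authors' peak caller made them; the file's source column names PeakSeq and its header WormBase WS180. How reads were aligned, filtered and scaled to input, and with which version of the caller, is not given in the sources used here. No read counts are listed, so the depth per library is unknown; read numbers in the text were computed from the q-values. The members, sites and classes were chosen with earlier results of these data known. Width is end minus start plus 1. The right arm was measured to the end of the last peak, at 17461616, since the length of the chromosome in WS180 was not used. Borders of the other chromosomes were those of the published recombination map, whose build may differ. Counting intervals for shares are Clopper-Pearson at 95%, those for ratios of density follow from the share, and those for medians are exact order-statistic intervals. Sites named are, for each arm, the 5 smallest q-values, the widest peak, the highest ratio of implied reads, the fullest windows, longest runs and gaps, and the peaks at the borders; the narrowest and further wide peaks were chosen after their values were seen. The alternatives tried are named in the closing section with their values or the range of these. The code was tested on simulated data with known answers. Python 3.11.15, numpy 2.4.6, scipy 1.17.1, pandas 2.3.3 and matplotlib 3.10.9 were used.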

Additional observations from a re-analysis of the deposited data

How the results depend on the processing

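The left-arm share of arm peaks ranged from 60.8% to 67.6% and the arm-to-centre ratio from 1.29 to 1.52 over the alternatives run, all within their counting intervals. The left-to-right ratio lay between 1.98 and 2.19 with top-ranked peaks alone, merging at 500 bp, no peaks under 100 bp, arms taken as the outer 25% at each end, or the fullest window removed. It was 1.39 in covered base pairs. With limits added after seeing the data it was 3.44 under 300 bp, 0.91 at 500 bp or wider, a reversal, and 1.06 for q-values under 1e-20. The ratio of the piRNA domain to the remainder of the right arm reversed to 1.36 with top-ranked peaks alone, and lay between 0.746 and 0.992 otherwise, domain borders moved by 0.2 Mb included. Top-ranked peaks alone gave, for the left and right arm, median widths of 364 and 559 bp, neighbour shares of 15.8% and 9.88%, and median ratios of implied reads of 3.35 and 3.12. Without peaks under 100 bp, widths were 305 and 390 bp and neighbour shares 35.4% and 28.5%. Shares under 1e-10 were then 14.0% and 19.2%, and ratios 2.60 and 2.50. With the outer 25% as arms, widths were 282 and 370.5 bp and neighbour shares 40.7% and 29.7%. Shares under 1e-10 were then 11.9% and 17.7%, and ratios 2.68 and 2.53. Merging at 500 bp gave widths of 299 and 388 bp. Neighbour shares were 17.6% and 14.1% within 1 kb, 63.5% and 54.0% within 5 kb, and 29.9% and 14.2% after merging at 500 bp. No whole-list share is given here for these neighbour settings. Shares by q-value were 3.65% and 7.36% under 1e-20, against 4.33% of the list. Under 1e-5 they were 32.6% and 37.4%, near the 34.5% of the list. With at least 100 reads, the median ratio was 2.63 on the left arm and 2.34 on the right, and with 1 read moved from ChIP to input, an alternative added after seeing the data, 2.50 and 2.41. These limits alter by construction which peaks count. No paired analysis was possible because the 1 list analysed pools the replicates, so none could be left out either.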

Other observations

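Within classes of width, median implied ChIP reads were lower on the right arm in each class under 1000 bp and close at 1000 bp or more. Under 100 bp the medians were 28 ChIP and 8 input reads on the left arm and 23.5 and 5 on the right. From 300 to under 500 bp they were 92 and 31 on the left arm and 79.5 and 31 on the right. At 100 to under 300 bp the median was 50 ChIP and 18 input reads on the left arm and 43.5 and 16 on the right. At 500 to under 1000 bp it was 133 and 55 reads on the left arm and 110 and 48 on the right, and at 1000 bp or more 200 and 95 against 204 and 101. The median ratios of the left and right arm were 3.56 and 4.30 under 100 bp, 2.60 and 2.55 from 100 to under 300 bp, 2.36 and 2.36 from 500 to under 1000 bp and 2.10 and 2.21 at 1000 bp or more. From 300 to under 500 bp they were 2.82 and 2.38, with 2.26 in the centre of IV. Of the left-arm peaks in this last class, 24 of 95 had a q-value under 1e-10, as did 9 of 52 on the right arm and 20 of 116 in the centre. In the wider classes the left arm was not ahead. At 500 to under 1000 bp the counts were 10 of 36, 12 of 39 and 18 of 69. At 1000 bp or more they were 4 of 9, 8 of 18 and 9 of 15. No share for these classes over the whole list is given here, so these counts have no such background. The 4 strongest peaks of the left arm were also the 4 with the highest ratio of ChIP to input reads there when a total of 100 reads was required, whereas on the right arm the highest ratio, 7.50 (interval 4.43 to 13.5), belonged to a peak of rank 284 at IV:15472412-15472736. Its neighbour at IV:15471336-15471774, with a midpoint 1019 bp away, had a ratio of 6.57 (interval 4.46 to 9.99). None of these differences was tested.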
